A study of Mus musculus with 10 samples.

Results

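The voltage-gated and related ion channels were taken as every probe set with a single gene symbol that begins with Kcn (potassium channels), Scn and a digit (voltage-gated sodium channels), Cacn (voltage-gated calcium channels), Hcn (hyperpolarisation-activated cation channels) or Clcn (CLC chloride channels and transporters). The antisense transcript Kcnq1ot1 was left out. The rule found 88 of the 12422 probe sets that are not array controls. They stand for 68 of the 8251 genes named by such probe sets, and 18 of the 68 had more than 1 probe set. It used gene names and no measured value.

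Whole-brain RNA of mice at postnatal day 0 was measured on 10 Affymetrix oligonucleotide arrays. XmO is the 39,Xm genotype, a single X named for maternal origin, from the cross C57BL/6J x C3H/Paf (3 arrays, replicates 1, 2 and 7), and XX_Paf is the 40,XX female of that cross (3 arrays, replicates 1, 2 and 3). XpO is the 39,Xp genotype, a single X named for paternal origin, from the cross In(X)/C3H x C57BL/6J (2 arrays, replicates 15 and 18), and XX_InX is its 40,XX female (2 arrays, replicates 1 and 19). All groups carry both C57BL/6J and C3H parentage, and the labels name no drug or transgene. The labels do not say which parent is written first, whether an array holds 1 animal or a pool, or whether arrays share a litter, so every p-value measures the spread between these arrays, which may be technical.

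Voltage-gated channels open when the membrane potential changes, and the sodium, potassium and calcium channels each pass mainly 1 kind of ion. Sodium channels carry the upstroke of the action potential, potassium channels repolarise the membrane and hold it at rest, calcium channels couple electrical activity to transmitter release and gene expression, and HCN channels pass a pacemaker current. In rodent brain many of these genes are switched on or raised around birth and in the weeks after it, as neurons acquire mature firing.

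The values are linear intensities, already scaled to a trimmed mean of 500.3 on each array. Animals with 1 X or 2 X chromosomes have no Y, so the signal of the 9 Y-linked probe sets does not come from Y genes. It was used as the background, and its source was not tested. A channel probe set was taken as above background on an array where it exceeded the brightest of these probe sets (33.6 on XpO 15 to 137 on XmO 7). That limit differs between arrays, so the same intensity can pass on 1 array and fail on another. Intensity depends on the probe set, so no gene's level is set against another gene's. In this whole tissue, fewer cells of a type and less RNA per cell cannot be told apart. The inactive-X transcript Xist was at 21.3 to 30.7 in XmO against 3300 to 4082 in XX_Paf, and at 40.6 to 49.9 in XpO against 1673 to 2671 in XX_InX, so it was low in both XO groups. All 8 measured neuron markers were above background on all 10 arrays. XpO 18 had the lowest mean correlation with the other arrays (r = 0.945 across probe sets, against up to 0.961).

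Of the 88 channel probe sets, 44 were above background on all 10 arrays (34 genes), 30 on some arrays and 14 on none. With the median Y-linked probe set as the background 55 were above it on all arrays, and with a fixed intensity of 100 the number was 45. A mean filter over all 10 arrays kept 59 of them (48 genes) for testing and set 29 aside as too dim. A dim probe set does not show that its gene was silent, since a probe set can fail while another for the same gene gives signal.

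**Figure D1:**
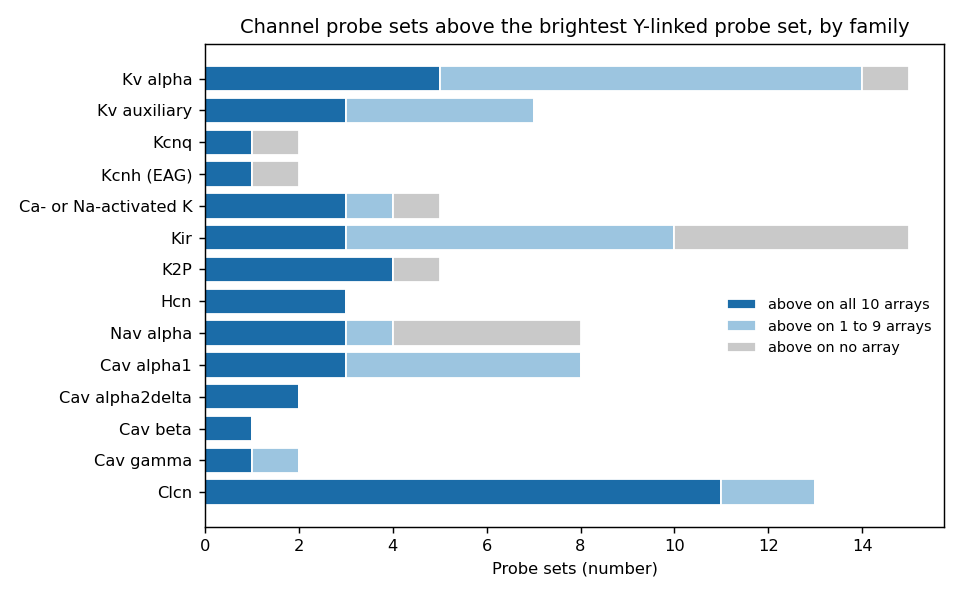
Number of channel probe sets (horizontal axis) in each channel family, split by whether they exceeded the brightest Y-linked probe set on all 10 arrays, on 1 to 9 arrays or on no array. The CLC family had 11 of 13 above it on all arrays, and the inward rectifiers (Kir) 3 of 15.

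Among the voltage-gated sodium channel alpha subunits, the proteins that form the pore, 3 of 8 probe sets were above background on all 10 arrays: both of Scn1a (Nav1.1) and 1 of Scn8a (Nav1.6). Scn1a, a channel of fast-spiking inhibitory neurons in the mature brain, had intensities of 740.2, 601 and 594 in XmO against 832, 708 and 724 in XX_Paf, and 671 and 616 in XpO against 440.0 and 669 in XX_InX with its probe set 162255_s_at. Its other probe set 94201_at gave 260.2, 239 and 277 in XmO against 399, 339 and 322 in XX_Paf, and 315 and 188 in XpO against 209 and 196 in XX_InX. With 94201_at every XX_Paf array was above every other array, and with 162255_s_at 1 XmO array lay among those of XX_Paf.

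Scn8a drives firing at the axon initial segment. Its probe set 104504_at had 411, 366 and 426 in XmO against 337, 352 and 383 in XX_Paf, and 376 and 328 in XpO against 335 and 365 in XX_InX. The groups overlapped in each comparison made here. Its other probe set 104505_at lay at 2.5 to 10.9, below background on all arrays.

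Scn9a (Nav1.7, best known from sensory neurons) was above background on 7 of 10 arrays, at 37.7 to 90.0 in XmO against 69.3 to 117 in XX_Paf, and 106 to 112 in XpO against 72.0 to 138 in XX_InX. Scn3a, the Nav1.3 channel of embryonic rodent brain, Scn7a, the glial sodium sensor, and Scn10a (Nav1.8 of sensory neurons) were below background on all 10 arrays. Scn1a, Scn9a and Scn7a are neighbours on chromosome 2 with 0 protein-coding genes between them, and Scn3a lies 4 genes away.

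Both HCN genes were above background on every array with all 3 of their probe sets. Hcn2, the main pacemaker subunit of thalamic neurons, had 1653, 1579 and 1873 in XmO against 1377, 1765 and 1503 in XX_Paf, and 1636 and 1964 in XpO against 2034 and 2037 in XX_InX with probe set 94195_r_at. Both XX_InX arrays were above all other arrays. Its second probe set 94194_s_at had 236 to 320.0 over the 10 arrays, and the groups overlapped in each comparison. Hcn3 had 1815, 1227 and 1283 in XmO against 1499, 1567 and 1541 in XX_Paf, and 1677 and 1715 in XpO against 1710.2 and 1464 in XX_InX, and XmO alone spanned its whole range.

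Among the voltage-gated calcium channels, 3 of 8 probe sets for pore-forming alpha1 subunits were above background on all arrays. Cacna1b, the N-type channel of presynaptic terminals, averaged 838 ± 104 in XmO against 775 ± 120 in XX_Paf, and 775 ± 150 in XpO against 781 ± 168 in XX_InX (SD, n = 3, 3, 2 and 2, as in all group means here). Cacna1c, the L-type channel that links activity to transcription, averaged 730.2 ± 99.4 in XmO against 678 ± 17.9 in XX_Paf, and 673 ± 95.7 in XpO against 614 ± 131 in XX_InX. The third was Cacna1g, a low-threshold T-type channel. Cacna1a, the P/Q-type channel, was above background on 9 arrays. Cacna1e, Cacna1h and Cacna1s, the last known from skeletal muscle, were above it on 2 to 4 arrays and were not tested.

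Of the probe sets for auxiliary calcium channel subunits, 4 of 5 were above background on all arrays. Cacna2d3, an alpha2delta subunit that carries channels to the membrane, had 757, 761 and 757 in XmO against 648, 769 and 647 in XX_Paf, and 716 and 737 in XpO against 749 and 515 in XX_InX. The XmO arrays lay within a narrow band while those of XX_InX spread widely. Cacna2d1 ranged from 280.4 to 449 over all arrays and the beta subunit Cacnb2 from 409 to 673. Cacng2 (stargazin, which also traffics AMPA receptors) ranged from 334 to 549. Cacng1, the gamma subunit of skeletal muscle, was above background on 5 arrays.

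Of the 15 probe sets for voltage-gated potassium channel (Kv) alpha subunits, 5 were above background on all arrays, from Kcnd2 (2 probe sets), Kcna3, Kcna6 and Kcns2. Kcnd2 (Kv4.2) carries the A-type current that damps dendritic excitation. Its probe set 99339_r_at had 646, 470.4 and 749 in XmO against 876, 743 and 598 in XX_Paf, and 578 and 519 in XpO against 378 and 436 in XX_InX, so both XX_InX arrays were the lowest of all. Kcna3 (Kv1.3) stayed between 238 and 330.3 on the 10 arrays. Kcna1, Kcna4 and Kcna7 were each above background on 2 or 3 arrays. Kcna5, Kcna1 and Kcna6 adjoin each other on chromosome 6, and Kcna3 and Kcna2 adjoin on chromosome 3.

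The Kv auxiliary subunits gave 3 of 7 probe sets above background on all arrays, 2 for Kcnab2, a beta subunit that binds Kv1 channels, and 1 for Kcne1l (also named Kcne5). Kcnab2 ranged from 263 to 338 with probe set 102892_at. Kcnh2, the ERG channel that also repolarises the heart, averaged 686 ± 85.0 in XmO against 619 ± 26.2 in XX_Paf, and 643 ± 75.3 in XpO against 649.65 ± 68.5 in XX_InX, while its relative Kcnh1 was below background on all arrays. Kcnq1, an imprinted gene expressed from the maternal chromosome in the mouse embryo, gave opposite detection with its 2 probe sets. Probe set 161796_r_at had 445, 541 and 635 in XmO against 378, 533 and 408 in XX_Paf, and 343 and 805 in XpO against 644 and 586 in XX_InX, with the 2 XpO arrays at the lowest and highest values. Probe set 99322_at lay at 8.1 to 37.2, below background on all arrays, so the level of Kcnq1 was not settled by this array. The imprinted gene Kcnk9 is not among the members.

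Of the calcium- or sodium-activated potassium channels and their relatives, 3 of 5 were above background on all arrays. Kcnma1, the large-conductance BK channel, had 977, 970.2 and 912 in XmO against 1054, 1250.1 and 1041 in XX_Paf, and 900.2 and 847 in XpO against 828 and 912 in XX_InX. Every XX_Paf array exceeded every other array. Kcnn1, of the small-conductance SK family that underlies part of the afterhyperpolarisation, ranged from 291 to 589, and Kcnn4, the intermediate-conductance channel best known from blood cells, from 92.7 to 227.

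The inward rectifiers had 3 of 15 probe sets above background on all arrays, beside 5 of 15 for the Kv alpha subunits. They were Kcnj4 (Kir2.3, at 189 to 302), Kcnj9 (GIRK3, a G protein-gated subunit, at 158 to 329 with probe set 98332_at) and Kcnj11 (the pore of the ATP-sensitive channel, at 151 to 299). Probe sets for Kcnj1, Kcnj2, Kcnj5, Kcnj6 and Kcnj15 made up the 5 that were below it on all arrays, and Kcnj1, Kcnj6 and Kcnj15 each had another probe set that was above it on some. Kcnj3 (GIRK1) and Kcnj12 (Kir2.2) were above it on 3 arrays and on 1 array. The two-pore leak channels, which set the resting potential, had 4 of 5 above background on all arrays. Kcnk2 (TREK-1) averaged 1155 ± 227 in XmO against 1262 ± 142 in XX_Paf, and 1389 ± 113 in XpO against 1394 ± 197 in XX_InX, and Kcnk1 (TWIK-1) ranged from 517 to 942. Kcnk3 was below background on all arrays.

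Of the 13 CLC probe sets, 11 were above background on all arrays. Clcn3, an endosomal and synaptic vesicle chloride-proton exchanger, had 4153, 3977 and 4416 in XmO against 4345, 3709 and 3639 in XX_Paf, and 3810 and 2960.0 in XpO against 3992 and 3637 in XX_InX with probe set 102786_at, and XpO 18 was the lowest array. Clcn4 lies on the X in most mammals but on chromosome 7 in laboratory mice, by the gene table used here. It averaged 2028 ± 419 in XmO against 2034 ± 180 in XX_Paf, and 2017 ± 409 in XpO against 2183 ± 602 in XX_InX (99672_at). Of the others, Clcn1 is the muscle chloride channel, Clcn2 a hyperpolarisation-activated plasma membrane channel and Clcn7 the lysosomal exchanger.

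No channel probe set passed in any of the 6 comparisons at a limma adjusted p under 0.05 over the 8695 probe sets tested. The smallest adjusted p of a member was 1 in XO against XX, 0.877 in XmO against XX_Paf, 1 in XpO against XX_InX, 0.780 in XmO against XpO, 0.184 in XX_Paf against XX_InX and 0.832 for the difference between crosses. Few probe sets of any kind passed. The share of all tested probe sets called was 0.0115% in XO against XX, 0.023% in XmO against XX_Paf, 0.0115% in XpO against XX_InX, 0.0115% in XmO against XpO, 0.0805% in XX_Paf against XX_InX and 0.023% for the difference between crosses, so 0 of 59 channel probe sets is at the background rate and is not a result about channels. The median 95% confidence interval of a channel probe set reached 0.40 to either side of its log2 fold change in XO against XX, 0.51 in XmO against XX_Paf, 0.62 in XpO against XX_InX, 0.57 in XmO against XpO, 0.57 in XX_Paf against XX_InX and 0.80 for the difference between crosses. Of the 44 probe sets above background on all arrays, 42 had intervals in XO against XX that lay within a log2 change of 1 in either direction. The number was 41 in XmO against XX_Paf, 37 in XpO against XX_InX and 39 in XmO against XpO. It was 34 in XX_Paf against XX_InX and 24 for the difference between crosses.

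**Figure D2:**
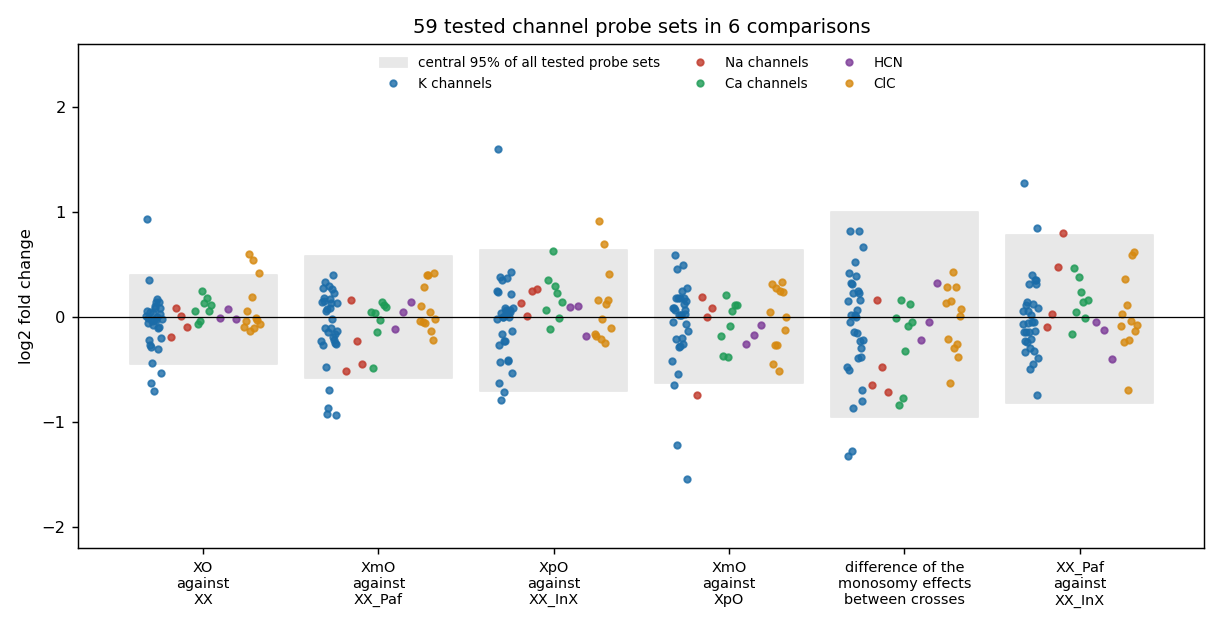
log2 fold change (vertical axis) of each of the 59 tested channel probe sets in the 6 comparisons, coloured by channel group (K, Na, Ca, HCN and CLC), with a grey band that holds the central 95% of all tested probe sets. Most points lie within the band, and 7 lie outside it in XO against XX and 3 in XX_Paf against XX_InX.

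The first comparison joined both crosses and asked which genes differed between the XO and XX groups. The part of Paf and In(X), named in the crosses, in this or the other comparisons was not tested. In XO against XX, 27 channel probe sets had higher and 32 lower estimates, with a median log2 fold change of -0.007, beside 0 over all tested probe sets. At an unadjusted p under 0.05 there were 4 members (6.78%), against 226 of all tested (2.6%). Across all tested probe sets, 0.851% were separated without overlap in the same direction in both crosses, and 0 channel probe sets were. Of the 7 members outside the central 95% of all estimates, Clcn1 (95376_at) and Clcn7 (104392_at) were above background on all 10 arrays, and the other 5 (Clcn2, Kcnj9, Kcnd1, Kcnd3 and Kcnab1) had 1 to 4 arrays at or below it.

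Among the families in XO against XX, the calcium- or sodium-activated potassium channels and their relatives had 0 higher and 4 lower estimates (median -0.165). Of these 4, Kcnu1 had -0.02 (95% interval -0.6 to 0.55). The pore-forming calcium channels had 3 higher and 1 lower (median 0.088). The Kv alpha subunits were split 5 to 6 (median -0.012), the sodium channels 2 to 2 (median -0.041) and the CLC family 5 to 7 (median -0.015). Scn1a had log2 fold changes of 0.01 (95% interval -0.28 to 0.30) and -0.09 (-0.44 to 0.26) with its 2 probe sets, Scn8a 0.09 (-0.17 to 0.34), Hcn2 -0.02 (-0.24 to 0.19) and 0.08 (-0.21 to 0.37), and Hcn3 -0.01 (-0.25 to 0.24).

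The members of smallest p in XO against XX were Kcnj9 and Clcn7, named here after their values were seen, since no member met the rule for naming. Kcnj9 had 163, 184 and 110.3 in XmO against 245, 181 and 315 in XX_Paf, and 216 and 149 in XpO against 237 and 368 in XX_InX, with probe set 161799_r_at (log2 fold change -0.70, SE 0.23, limma adjusted p = 1). The XpO and XX_InX arrays did not overlap, and 1 XmO array lay above the lowest XX_Paf array. Its other probe set 98332_at, with the higher mean, gave 0.15 (SE 0.20, adjusted p = 1), and the 2 probe sets had a correlation of -0.42 over the 10 arrays, a description over arrays that share groups.

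Clcn7 had 203, 231 and 267 in XmO against 213, 144 and 224 in XX_Paf, and 220 and 352 in XpO against 165 and 133 in XX_InX with probe set 104392_at (log2 fold change 0.60, SE 0.20, limma adjusted p = 1). The groups of the first cross overlapped and those of the second did not. Its other probe set 104391_s_at gave 0.06 (SE 0.13, adjusted p = 1), so neither gene had a difference shown by both of its probe sets.

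Of the 3 X-linked channel genes, none was called. Clcn5, an endosomal exchanger known from the kidney, had 489, 490.1 and 460.1 in XmO against 435, 496 and 546 in XX_Paf, and 430.4 and 499 in XpO against 493 and 546 in XX_InX with probe set 101913_at. The groups overlapped in both crosses, and the log2 fold change over both was -0.10 (95% interval -0.34 to 0.15, limma adjusted p = 1). Its other probe set 161451_r_at gave 0.19 (-0.37 to 0.75).

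Kcne1l, an auxiliary subunit that inhibits some Kv channels, had 249, 257 and 237 in XmO against 279, 265 and 329 in XX_Paf, and 295 and 371 in XpO against 228 and 341 in XX_InX. The XmO arrays lay below all XX_Paf arrays, and the XpO arrays overlapped those of XX_InX. Its log2 fold changes were -0.23 (SE 0.19, limma adjusted p = 0.899) in XmO against XX_Paf, 0.25 (SE 0.24, adjusted p = 1) in XpO against XX_InX and 0.01 (95% interval -0.32 to 0.34) over both.

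Kcnd1 (Kv4.1) had 107, 94.0 and 146 in XmO against 182, 37.2 and 123 in XX_Paf, and 110.2 and 125 in XpO against 44.1 and 34.1 in XX_InX. Both XX_InX arrays and 1 XX_Paf array were below background. With those values, the log2 fold change of Kcnd1 was 0.93 in XO against XX (95% interval 0.07 to 1.8), the highest of the tested members. In XX_Paf against XX_InX it was 1.28 (95% interval 0.06 to 2.5), with overlapping arrays. Neither passed, and both sizes rest on values below background. No bound against background was worked out for either, so their direction is not secured. In XpO against XX_InX the fitted log2 fold change of Kcnd1 was 1.6 (95% interval 0.26 to 2.93, limma adjusted p = 1), which also rests on values below background. With the background of the XX_InX arrays in place of their values, Kcnd1 was at least 1.17-fold higher in XpO, a ratio that was not tested. In XmO against XX_Paf its log2 fold change was 0.27 (SE 0.50, adjusted p = 0.943) with overlapping arrays.

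**Figure D3:**
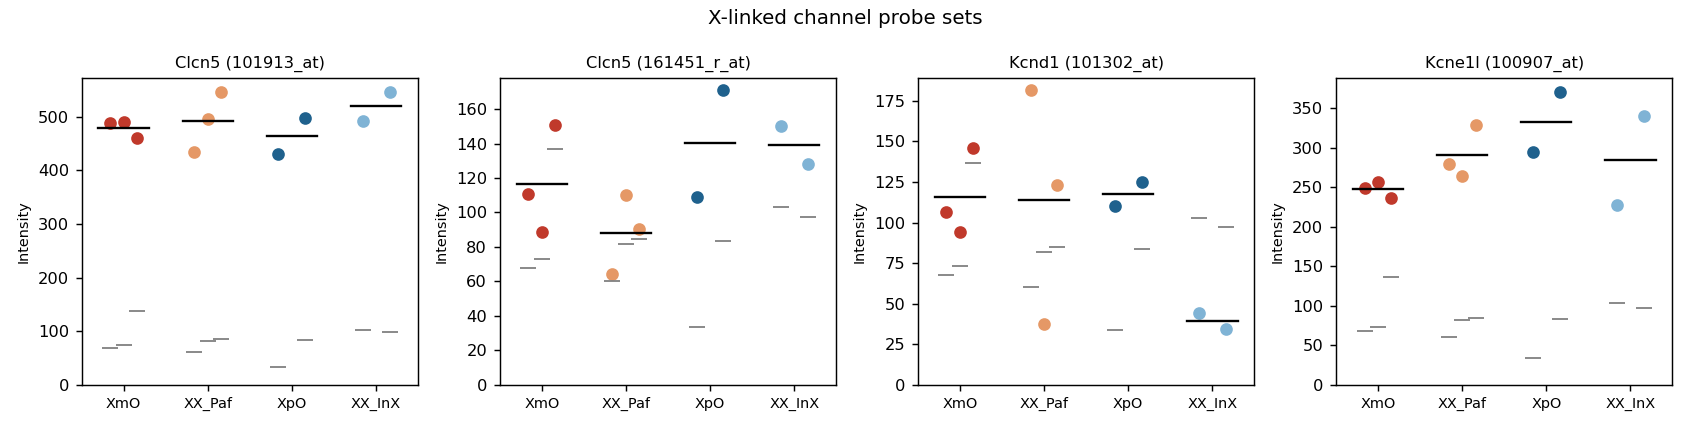
Intensity (vertical axes, linear, each from 0) of the 4 X-linked channel probe sets on the 10 arrays by group, with a black line at each group's mean and a short grey line at the brightest Y-linked probe set of each array. Both XX_InX arrays of Kcnd1 lie below the grey lines, at 44.1 and 34.1, and the Clcn5 probe set 101913_at lies at 430.4 to 546 in all 4 groups.

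The 2 crosses were then kept apart. In XmO against XX_Paf, 29 members had higher and 30 lower estimates (median -0.017, beside 0.002 over all), and 2 of the members (3.39%), against 481 of all tested (5.53%), had an unadjusted p under 0.05. Arrays did not overlap for 5 members (8.47%), against 13.9% of all tested probe sets. Scn1a was among them with 94201_at at 259 ± 18.99 in XmO and 354 ± 40.5 in XX_Paf (log2 fold change -0.45, SE 0.21, limma adjusted p = 0.877), while 162255_s_at overlapped (-0.23, SE 0.17, adjusted p = 0.887). Kcnma1 had 953 ± 35.7 in XmO and 1115 ± 117 in XX_Paf (-0.22, SE 0.12, adjusted p = 0.887), and the Kv beta subunit Kcnab1 106 ± 23.8 in XmO and 146 ± 11.4 in XX_Paf (-0.47, SE 0.36, adjusted p = 0.887) with 102725_at. The other Kcnab1 probe set, 162087_f_at, was too dim to test and overlapped, at 29.8 to 71.6 in XmO and 35.8 to 55.3 in XX_Paf. Kcnj9 was separated in the other direction with 98332_at, at 244 ± 19.3 in XmO and 208 ± 12.4 in XX_Paf (0.23, SE 0.25, adjusted p = 0.918), whereas 161799_r_at overlapped with an estimate of the opposite sign (-0.69, SE 0.28, adjusted p = 0.877). None of these differences passed, and the fifth separated member was Kcne1l.

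In XpO against XX_InX, 35 members had higher and 24 lower estimates (median 0.047, beside -0.011 over all), and 2 (3.39%) had an unadjusted p under 0.05, against 294 of all tested (3.38%). Arrays did not overlap for 10 members (16.9%), 5 in each direction, against 23.4% of all tested probe sets. Clcn7 (104392_at) averaged 286 ± 93.3 in XpO against 149 ± 22.2 in XX_InX (log2 fold change 0.91, SE 0.30, limma adjusted p = 1). Kcnd2 (99339_r_at) averaged 548 ± 41.5 in XpO and 407 ± 40.7 in XX_InX (0.43, SE 0.23, adjusted p = 1). The second probe set was nearer to 0 for both genes, at 0.17 for Clcn7 and 0.05 for Kcnd2. On the lower side, Kcnj9 (161799_r_at) averaged 183 ± 47.2 in XpO and 302 ± 93.0 in XX_InX (-0.72, SE 0.35, adjusted p = 1), while its other probe set overlapped at 0.06. Kcnn4 averaged 112 ± 26.7 in XpO and 171 ± 24.5 in XX_InX (-0.63, SE 0.34, adjusted p = 1). Hcn2 (94195_r_at) averaged 1800.3 ± 232 in XpO and 2036 ± 2.55 in XX_InX (-0.18, SE 0.15, adjusted p = 1). The second Hcn2 probe set, 94194_s_at, had an estimate of the opposite sign with overlapping arrays (0.10, SE 0.21). Kcnd1, described above, was also separated on the higher side, with both XX_InX arrays below background. With 2 arrays a group, separation without overlap is common among all probe sets and none of these passed.

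The contrast of maternal with paternal monosomy set XmO against XpO, groups that also differ in cross, so the origin of the X and the cross cannot be told apart in it. Estimates were higher for 32 members and lower for 27 (median 0.022, beside 0 over all), and 4 (6.78%) had an unadjusted p under 0.05, against 420 of all tested (4.83%). Arrays did not overlap for 8 members (13.6%), against 17.4% of all tested probe sets. Kcnd3 (Kv4.3, an A-type channel) had 43.8, 85.5 and 30.3 in XmO against 89.1 and 222 in XpO (log2 fold change -1.54, SE 0.50, limma adjusted p = 0.780, and -2.19 to -0.88 when 1 array was left out). It was above background on 1 of 3 XmO arrays and on both XpO arrays, so the size of this difference rests on values at background. Its XX females had 112, 75.4 and 93.6 in XX_Paf and 154 and 154 in XX_InX.

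Kcnj8, the pore of the vascular ATP-sensitive channel, had 91.1, 27.6 and 57.4 in XmO against 130.2 and 115 in XpO (-1.22, SE 0.49, limma adjusted p = 0.969). It too was above background on 1 of 3 XmO arrays and on both XpO arrays. Clcn7 averaged 575 ± 51.9 in XmO and 797 ± 226 in XpO with 104391_s_at (-0.44, SE 0.18, adjusted p = 0.969), and its other probe set overlapped at -0.26 (SE 0.28). On the higher side, Clcn3 averaged 4182 ± 221 in XmO and 3385 ± 601 in XpO (0.32, SE 0.13, adjusted p = 0.969), and its other 3 probe sets had 0.24 to 0.34 with overlapping arrays. Without XpO 18 these 3 had estimates of -0.10 to -0.01. Kcnma1 (0.13, SE 0.13) and Cacna2d3 (0.06, SE 0.17) were also separated without passing (adjusted p = 0.998 each). So were, on the lower side, the X-linked Kcne1l (-0.42, SE 0.22) and Scn9a (-0.74, SE 0.47), with a limma adjusted p = 0.969 each. Scn9a was above background on 1 of 3 XmO arrays and on both XpO arrays.

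Whether the effect of monosomy differed between the crosses was tested as (XmO minus XX_Paf) minus (XpO minus XX_InX). Estimates were positive for 27 members and negative for 32 (median -0.043, beside 0.015 over all), and 2 (3.39%) had an unadjusted p under 0.05, against 514 of all tested (5.91%). The crosses were separated in opposite directions for 2.02% of all tested probe sets and for 0 members. Kcnd2 (99339_r_at) had a difference of -0.69 (SE 0.30, limma adjusted p = 0.832), from 622 ± 141 in XmO and 739 ± 139 in XX_Paf, and 548 ± 41.5 in XpO and 407 ± 40.7 in XX_InX. The second Kcnd2 probe set, 98364_at, had -0.29 (SE 0.37). Scn1a had -0.71 with 94201_at (SE 0.32, adjusted p = 0.832) and -0.47 with 162255_s_at (SE 0.27, adjusted p = 0.857). Cacna1g had -0.84 (SE 0.41, adjusted p = 0.832), with 450.3, 255 and 243 in XmO against 386, 464 and 425 in XX_Paf, and 523 and 295 in XpO against 342 and 276 in XX_InX. The lowest estimates, with larger p, were those of the X-linked Kcnd1 (-1.32, 95% interval -3.05 to 0.41) and of Kcnj8 (-1.28, -2.79 to 0.24). Each was above background on 7 of the 10 arrays.

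The positive differences with the smallest p were those of the two-pore subunit Kcnk7 (0.82, SE 0.41, limma adjusted p = 0.832), Kcnn4 (0.82, SE 0.43, adjusted p = 0.845) and Hcn2 with 94195_r_at (0.32, SE 0.20, adjusted p = 0.874). The other Hcn2 probe set, 94194_s_at, had -0.05 (SE 0.27). Positive estimates above the 0.32 of Hcn2 but with larger p included Kcna2 (0.67, SE 0.52, adjusted p = 0.875). Kcnk7 averaged 295 ± 38.4 in XmO and 224 ± 38.6 in XX_Paf, and 223 ± 114 in XpO and 276 ± 5.23 in XX_InX. The 2 XpO arrays of Kcnk7, at 142 and 304, lay on either side of both XX_InX arrays.

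The channel probe sets lay closest to the threshold between the XX females of the 2 crosses. In XX_Paf against XX_InX, 28 members had higher and 31 lower estimates (median -0.04, beside -0.022 over all). At an unadjusted p under 0.05 there were 8 members (13.6%), against 1199 of all tested (13.8%), and arrays did not overlap for 14 members (23.7%), against 37.1% of all. Both shares are near or below those of all tested probe sets.

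Kcnd2 led with probe set 99339_r_at, at 739 ± 139 in XX_Paf and 407 ± 40.7 in XX_InX (log2 fold change 0.85, SE 0.21, limma adjusted p = 0.184). Its other probe set 98364_at was also separated, with 183, 190.3 and 230.2 in XX_Paf against 167 and 146 in XX_InX (0.35, SE 0.26, adjusted p = 0.559). Scn1a had 354 ± 40.5 in XX_Paf and 202 ± 9.41 in XX_InX with 94201_at (0.80, SE 0.23, adjusted p = 0.190) and 755 ± 67.2 in XX_Paf and 554 ± 162 in XX_InX with 162255_s_at (0.47, SE 0.19, adjusted p = 0.303). For both genes every XX_Paf array was above every XX_InX array with both probe sets, and neither gene passed.

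Clcn3 was divided by probe set. The probe sets 94464_at and 94465_g_at had 1136 ± 126 and 751 ± 75.7 in XX_Paf against 749.9 ± 13.3 and 490.4 ± 72.8 in XX_InX (0.59, SE 0.19, limma adjusted p = 0.214, and 0.62, SE 0.21, adjusted p = 0.241). The probe sets 102786_at and 94463_at had 0.03 (SE 0.13) and -0.04 (SE 0.20) with overlapping arrays. Over the 10 arrays 94464_at and 94465_g_at had a correlation of 0.94 and the other pairs 0.27 to 0.64, a description over arrays that share groups. Where on the transcript each probe set lies is not given in the sources used here.

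On the lower side, Hcn2 averaged 1548 ± 198 in XX_Paf and 2036 ± 2.55 in XX_InX with 94195_r_at (log2 fold change -0.40, SE 0.14, limma adjusted p = 0.255), and 94194_s_at gave -0.12 (SE 0.19, adjusted p = 0.790). Clcn5 averaged 88.1 ± 23.0 in XX_Paf and 139 ± 15.6 in XX_InX with 161451_r_at (-0.69, SE 0.36, adjusted p = 0.417), and -0.08 with 101913_at. The imprinted gene Kcnq1 averaged 439.8 ± 82.3 in XX_Paf and 615 ± 41.3 in XX_InX with 161796_r_at (-0.50, SE 0.30, adjusted p = 0.467).

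**Figure D4:**
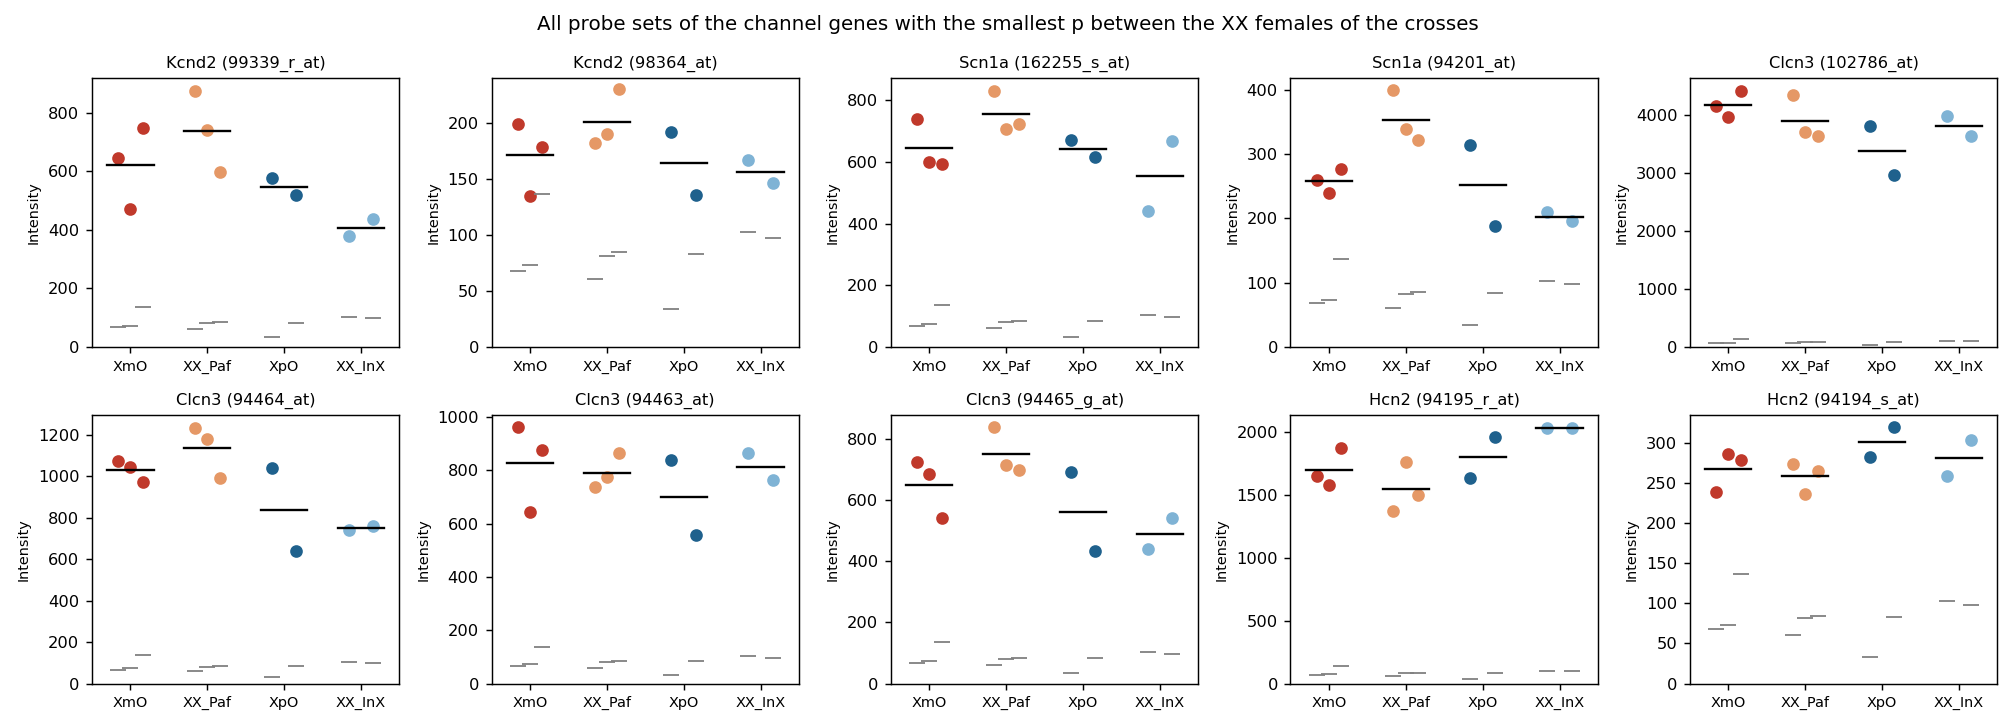
Intensity (vertical axes, linear, each from 0) on the 10 arrays by group for all probe sets of Kcnd2, Scn1a, Clcn3 and Hcn2, the channel genes of smallest p between the XX females of the crosses, with a black line at each group's mean and a short grey line at the brightest Y-linked probe set of each array. Both probe sets of Scn1a and of Kcnd2 lie higher on all XX_Paf arrays than on both XX_InX arrays, while 102786_at and 94463_at of Clcn3 overlap and 94195_r_at of Hcn2 lies higher in XX_InX.

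Summed levels of red blood cell markers did not overlap between the crosses. The summed intensity of the 4 measured erythroid markers was 11280 to 17290 in XmO and 11690 to 16970 in XX_Paf against 5952 to 7455 in XpO and 4016 to 6178 in XX_InX, and 1 of the 4 was called higher in XX_Paf against XX_InX (limma). All 4 had higher estimates in that comparison and in XmO against XpO, where 0 of 4 were called (limma; 2 at an unadjusted p under 0.05). Of the 6 measured radial glia and astrocyte markers, 3 had an unadjusted p under 0.05 in XX_Paf against XX_InX, beside 13.8% of all tested probe sets. By limma 0 of these 6 markers were called (3 higher and 3 lower estimates, median -0.28). Their summed intensity overlapped, at 12900 to 15370 in XX_Paf against 13040 to 14140 in XX_InX. The part of either cell type's RNA in the channel differences between the crosses was not tested. The summed neuron markers were at 49610 to 56840 in XmO against 53880 to 54760 in XX_Paf, and 54030 to 59290 in XpO against 53660 to 58410 in XX_InX, and 0 of 8 were called in any comparison (limma; at an unadjusted p under 0.05 there was 1, in XmO against XX_Paf).

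Skeletal muscle markers, listed because Cacna1s, Cacng1 and Clcn1 are muscle genes, had 3 of 8 above background on all arrays and 2 on none, with summed intensities of 752 to 1138 in XmO against 713 to 3286 in XX_Paf, and 806 to 1153 in XpO against 736 to 931 in XX_InX. Of these muscle genes only Clcn1 was tested. It had 241, 223 and 176 in XmO against 183, 211 and 102 in XX_Paf, and 178 and 300.0 in XpO against 286 and 106 in XX_InX, with overlapping groups, and the part of muscle RNA in its signal was not tested.

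Genes that work with the channels were described in the same way. Of 42 listed genes for channel partners (ankyrins, contactins, FGF homologous factors, calmodulins) and for ion pumps and exchangers, 25 were on the array and 24 were tested, and 20 of the 25 were above background on all arrays. None was called in any of the 6 comparisons by limma. At an unadjusted p under 0.05 there were 1 in XO against XX, 1 in XmO against XX_Paf, 0 in XpO against XX_InX, 2 in XmO against XpO, 5 in XX_Paf against XX_InX and 0 for the difference between crosses. The shares of all tested probe sets were 2.6%, 5.53%, 3.38%, 4.83%, 13.8% and 5.91%, in the same order. Their median log2 fold change was 0.01 in XO against XX, -0.14 in XmO against XX_Paf (8 higher and 16 lower estimates), -0.03 in XpO against XX_InX, -0.09 in XmO against XpO, 0.01 in XX_Paf against XX_InX and -0.18 for the difference between crosses.

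Arrays of a group also differed among themselves. The median SD within groups was 0.269 on the log2 scale for the 59 tested members, beside 0.231 for all tested probe sets. The most variable were Clcn2 (SD 0.733), Kcnd1 (0.723), the GIRK2 gene Kcnj6 (0.607), Kcnd3 (0.602) and the fast-spiking channel gene Kcnc1 (Kv3.1, 0.601). All 5 were at or below background on 2 to 4 of the 10 arrays. Clcn2 had 39.7, 102 and 155 in XmO against 65.3, 105 and 39.7 in XX_Paf, and 96.9 and 154 in XpO against 74.4 and 76.7 in XX_InX. Kcnc1 had 34.6, 139 and 66.4 in XmO against 136, 138 and 103 in XX_Paf, and 94.9 and 104 in XpO against 91.8 and 108 in XX_InX. In both genes the XmO arrays alone spanned the whole range. The members' median deviation from the group mean was -0.089 on XpO 15 and 0.089 on XpO 18, beside -0.015 and 0.015 over all tested probe sets. On the other 8 arrays the members' median deviation was between -0.019 and 0.03.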

How the data were processed

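RNA of 10 samples was measured, 1 array each, and the deposited table gives 1 linear intensity per probe set and array. How the authors summarised, background-corrected and scaled it is not given in the sources used. The deposited intensity values had a trimmed mean (2% at each end) of 500.3 on every array, so they had been scaled, and they were used as they stood. No scanner files, detection calls or scan dates were used, so hybridisation batches could not be examined. The number of arrays limits the precision.

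A probe table gave 1 gene symbol for 10833 of 12422 probe sets, several for 396 and none for 1193. Chromosomes and neighbours came from a gene table of GRCm38.p6, which matched all 88 channel probe sets. The build behind the probe design is not given, so no coordinates are printed. Intensities under the 10th percentile (15.1) were raised to it. On the log2 scale, a mean at or over the 30th percentile was required for testing, which 8695 probe sets met. limma 3.58.1 in R 4.3.3 fitted 1 mean per group (lmFit; eBayes with trend on intensity), leaving 6 residual degrees of freedom. XO against XX weighs both crosses equally. Tests were two-sided, adjusted by Benjamini and Hochberg over the 8695 within each comparison, with a threshold of 0.05. Only the model fit and the adjustment were run on simulated data, and not the floor, filter, background or naming steps. Fold changes are on the log2 scale with that floor, and 95% confidence intervals are those of the fit. For a difference picked by the naming rule, where both arrays of a group lay below the brightest Y-linked probe set, that background replaced them. The resulting ratio is given as a bound and was not tested.

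The members, marker lists, partner list and naming rule were chosen with earlier results of these data known. The rule names called members or, failing them, up to 3 members per direction with the smallest p among those whose arrays do not overlap. For XO against XX the arrays had to be separated in the same direction in both crosses. For the difference between crosses, overlap was not considered, and the rule took members whose estimates had opposite signs in the 2 crosses. It also names X-linked and imprinted members, all sodium and HCN channels, 2 tested genes of highest mean per other family, and the 5 most variable members. It was applied to probe sets, with a gene's other probe sets beside them. Other members mentioned in the account of each family were chosen after their values were seen. The marker lists for radial glia and astrocyte, oligodendrocyte lineage, microglia, pituitary and choroid plexus had 0 called genes in every comparison by limma. At an unadjusted p under 0.05 there were at most 3, in radial glia and astrocyte in XX_Paf against XX_InX, and at most 1 in the others. Replicate numbers 1 and 2 are shared by XmO and XX_Paf. Deviations of same-numbered arrays correlated at -0.012 and -0.041, so the numbers were not taken to pair the samples.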

Additional observations from a re-analysis of the deposited data

How the results depend on the processing

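The 6 comparisons were refitted under up to 19 alternatives, 9 of them other settings (floor, filter, quantile normalization, no intensity trend, array weights, a replicate block, only the groups compared) and the rest with 1 array left out. 0 members were called under any of them, with 1 exception. Without a filter, 1 member was called in XX_Paf against XX_InX, Kcnj5 (log2 fold change -1.3, limma adjusted p = 0.0321), which was below background on all 10 arrays. The members' median log2 fold change ranged, with 1 array left out, from -0.02 to 0.047 in XmO against XX_Paf, from -0.051 to 0.103 in XpO against XX_InX, from -0.082 to 0.035 in XmO against XpO and from -0.04 to 0.024 in XX_Paf against XX_InX, and with a filter at the 50th percentile it was 0.034 for the difference between crosses.

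Of 63 estimates of named probe sets, 44 kept their sign under every alternative run. The other 19 had main values of at most 0.34 in size, and the cause of their change of sign was not tested. With 1 array left out, Kcne1l ranged from -0.13 to 0.16 in XO against XX and from -0.04 to 0.54 in XpO against XX_InX. In XO against XX, Clcn7 (104391_s_at) ranged from -0.09 to 0.21 and Kcnj9 (98332_at) from -0.12 to 0.41. In XmO against XX_Paf, Kcnd1 ranged from -0.4 to 0.75 and Clcn5 (101913_at) from -0.12 to 0.05. In XpO against XX_InX the ranges were -0.35 to 0.3 for Clcn5 (161451_r_at), -0.13 to 0.46 for Clcn7 (104391_s_at), -0.01 to 0.22 for Hcn2 (94194_s_at), -0.47 to 0.6 for Kcnj9 (98332_at) and -0.2 to 0.29 for Kcnd2 (98364_at). In XmO against XpO they were -0.6 to 0.08 for Clcn7 (104392_at), and for Clcn3 -0.04 to 0.55 (94463_at), -0.01 to 0.69 (94464_at) and -0.1 to 0.57 (94465_g_at). For the difference between crosses, Hcn2 (94194_s_at) ranged from -0.17 to 0.07. In XX_Paf against XX_InX, Clcn5 (101913_at) ranged from -0.16 to 0, Clcn3 from -0.05 to 0.1 (102786_at) and from -0.13 to 0.05 (94463_at). With array weights Kcne1l had -0.01 in XO against XX and Clcn3 (102786_at) -0.01 in XX_Paf against XX_InX. With quantile normalization Clcn5 (161451_r_at) had 0.03 in XpO against XX_InX.

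With the replicate number as a block in the first cross (3 residual degrees of freedom), Clcn5 (101913_at) had 0.08 in XmO against XX_Paf, and 0 members were called. As the numbers share no stated litter or batch, this fit is given only here.

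Over all tested probe sets the number called was 1 in XO against XX (1 to 4 under the alternatives), 2 in XmO against XX_Paf (1 to 4), 1 in XpO against XX_InX (1 to 6), 1 in XmO against XpO (1 to 7, with 7 without XpO 15), 2 for the difference between crosses (0 to 4) and 7 in XX_Paf against XX_InX (2 to 35, with 35 when only these groups were fitted). The 29 members too dim to test limit what can be said of them to their intensities.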
